A study of Mus musculus with 2 samples.

Results

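The regions described here are the mouse olfactory receptor genes on a pair of promoter arrays hybridised with Tcf3 chromatin immunoprecipitate from embryonic stem cells. They were found by name, as all non-control probes whose gene name in the array annotation is Olfr followed by digits, alone or in a hyphen-joined pair of 2 neighbouring genes. This gave 19921 of 474380 probes, of which 19920 were used, and 883 of the 17093 genes named in the annotation. The genes lay on 17 chromosomes. Array 1 held 437 of them with 10115 probes, and array 2 held 446 with 9805 probes, with 0 genes on both. Of the gene names, 40 were pairs (614 probes), and in 10 of those the partner was not an olfactory receptor (112 probes).

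Tcf3 (current symbol Tcf7l1) is one of the Tcf/Lef proteins, which bind DNA and pass on Wnt signals to genes. Feeder-free E14 cells, an established line of mouse embryonic stem cells, were cross-linked, and amplified immunoprecipitate (Cy5) and amplified input DNA (Cy3) were hybridised together to each array. The antibody list in the labels holds several antibodies without saying which one was used for the arrays, so Tcf3 is taken from the sample titles. The arrays share no probe, so each receptor gene was measured on 1 array of 1 cell line, with no replicate and no control immunoprecipitation. No test between samples was possible, and precision is limited by having 1 array per gene. Intervals given below are exact binomial 95% intervals and cover counting error only, and neighbouring probes can sit on the same DNA fragments.

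Olfactory receptors are G protein-coupled receptors of the sensory neurons of the nose, and each such neuron expresses 1 receptor gene from 1 of its alleles. The genes form one of the largest families in the mouse genome and lie in clusters, usually in AT-rich DNA, where neighbouring genes are related copies. Class I receptors, the fish-like class, sit together in a single cluster, while class II receptors are spread over many clusters.

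The values turned on a property of the scanner software. If the spot did not rise above its background, the software put in a surrogate, a small stand-in value that is nearly the same at all such spots. A spot is called measured here if neither channel was a surrogate. The log2 ratio of immunoprecipitate over input was centred on the median of each array, so that 0 is the middle of all probes and 1 is a 2-fold excess. A set joins a probe to the closest probe on either side, if within 1000 bp, and so has 2 to 3 probes. Its mean is given with the SD over those probes, which describes how neighbouring positions differed and says nothing about repeat experiments.

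The probes below are those of receptor genes with leading sets of measured spots, and they are printed as examples of the DNA behind the higher set means. The pair name Olfr351-Olfr352 and single probes as high as 3.92 (Olfr870) are described further on without their sequence. They are given 5′ to 3′ as the array files give them. The array coordinates stand beside each name, whose genome build is not given in the sources used. Capitals mark the word CACCAC, which reads GTGGTG where the other strand carries it. They also mark the word CAACAC, which then reads GTGTTG. Both were picked out after their values had been seen, as described further on. The probes printed are a part of the 42 in the measured sets of the named genes, of which 8 held a marked word.
Olfr642 (chr7:100114634-100114693): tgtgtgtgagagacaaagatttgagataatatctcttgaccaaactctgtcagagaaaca
Olfr642 (chr7:100114798-100114857): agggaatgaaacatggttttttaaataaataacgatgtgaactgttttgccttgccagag
Olfr645 (chr7:100139091-100139150): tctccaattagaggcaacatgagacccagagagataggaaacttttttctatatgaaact
Olfr645 (chr7:100139858-100139917): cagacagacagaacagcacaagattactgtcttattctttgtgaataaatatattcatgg
Olfr591 (chr7:99224918-99224977): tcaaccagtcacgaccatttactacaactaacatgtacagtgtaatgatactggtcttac
Olfr591 (chr7:99225238-99225297): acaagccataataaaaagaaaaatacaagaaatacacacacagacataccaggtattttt
Olfr591 (chr7:99226004-99226063): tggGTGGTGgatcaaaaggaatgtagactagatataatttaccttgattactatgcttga
Olfr211 (chr6:116515280-116515338): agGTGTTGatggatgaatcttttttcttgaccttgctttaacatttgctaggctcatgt
Olfr211 (chr6:116515389-116515448): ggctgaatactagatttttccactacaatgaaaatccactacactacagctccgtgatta
Olfr211 (chr6:116515503-116515562): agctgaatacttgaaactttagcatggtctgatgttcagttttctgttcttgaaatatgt
AW551984-Olfr148 (chr9:39539202-39539261): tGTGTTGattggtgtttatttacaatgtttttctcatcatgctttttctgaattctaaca
AW551984-Olfr148 (chr9:39540068-39540127): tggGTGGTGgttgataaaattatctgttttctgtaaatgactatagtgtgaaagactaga
Olfr1434 (chr19:11964112-11964171): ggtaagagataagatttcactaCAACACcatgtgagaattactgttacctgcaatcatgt
Olfr1434 (chr19:11964584-11964643): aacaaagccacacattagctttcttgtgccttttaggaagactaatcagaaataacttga
Olfr734 (chr14:45656978-45657037): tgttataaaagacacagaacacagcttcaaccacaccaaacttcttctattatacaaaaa
Olfr734 (chr14:45657248-45657307): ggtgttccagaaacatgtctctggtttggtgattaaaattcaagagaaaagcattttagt

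Most receptor probes gave no signal above background in the immunoprecipitate. On array 1 the Cy5 value was a surrogate at 7089 of 10115 receptor probes, 70.1% (69.2 to 71.0%), against 28.9% of the other probes. On array 2 it was a surrogate at 8190 of 9805, 83.5% (82.8 to 84.3%), against 50.3% of the others. The input was dim as well, with a median Cy3 intensity at receptor probes of 147.5 on array 1 and 102.7 on array 2, against 482.6 and 325.3 at the other probes. The input itself was a surrogate at 16.2% and 36.0% of receptor probes, against 1.60% and 6.67% of the others. Both channels were therefore weaker over the receptor genes than over the rest of the array, and the share of spots lost to background was larger in the immunoprecipitate.

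The log ratios of the receptor probes were high with surrogates included and far lower without them. The median log2 ratio over all receptor spots was 0.75 on array 1 and 1.06 on array 2, against -0.02 and -0.03 at the other probes. Among surrogate receptor spots alone it was 0.99 and 1.22, and among measured receptor spots 0.17 and 0.09, where the other measured probes had -0.04 and -0.19. The middle 50% of measured receptor spots ran from -0.36 to 0.94 and from -0.47 to 0.77. A dim spot counts as measured only if its Cy5 rose above background, so a dim measured spot had to have a high ratio, and only 3012 and 1593 receptor probes passed. Their counts and medians are therefore given as a description.

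A surrogate ratio carried almost no information on the immunoprecipitate. Over the surrogate receptor spots of array 1, log2 Cy5 had an SD of 0.03 and log2 Cy3 an SD of 0.90, and on array 2 the values were 0.04 and 0.67. The log ratio of such a spot was thus nearly a mirror image of its input signal. The dimmer the input, the higher the ratio, up to 2.23 on array 1 and 1.59 on array 2. In the authors' deposited log ratio column, 5404 of 10115 receptor probes on array 1 (53.4%) and 7153 of 9805 on array 2 (73.0%) stood at exactly 0, against 11.6% and 27.7% of the other probes, and 0 of these receptor spots were measured in both channels. More than every second receptor probe was therefore written as no change by the authors' software, while the ratio of its 2 processed signals read high.

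**Figure D1:**
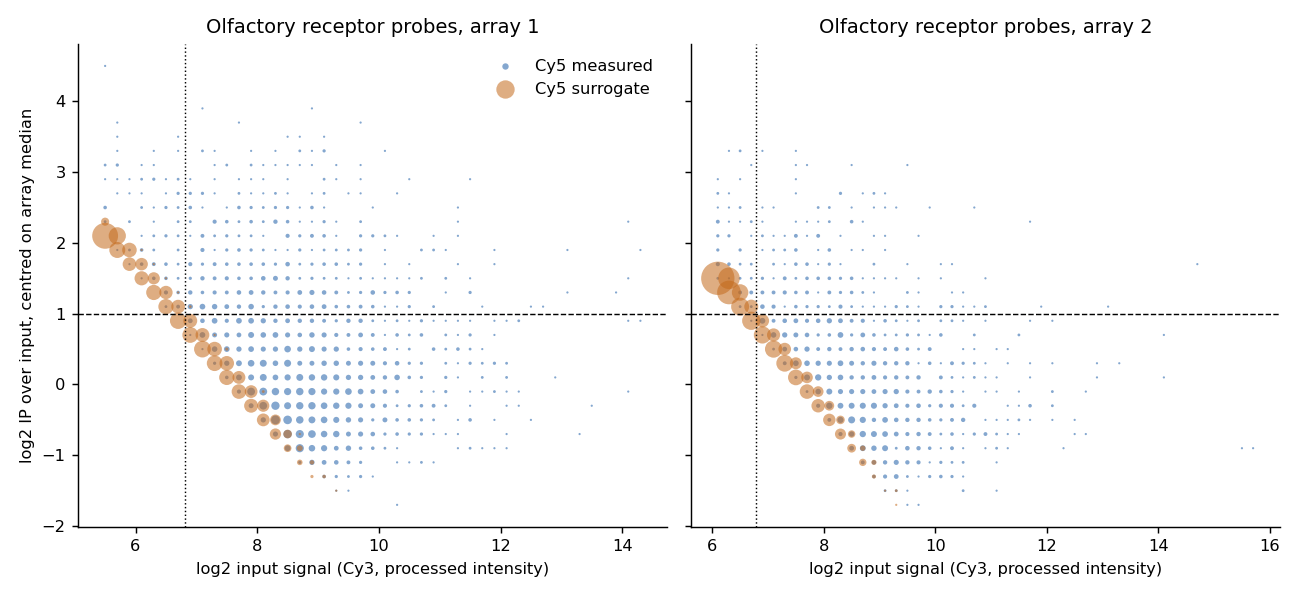
Olfactory receptor probes of array 1 (left) and array 2 (right), with log2 input signal (Cy3 processed intensity) on the x axis and the centred log2 ratio of immunoprecipitate over input on the y axis, counted in cells of both values, with point area growing with the number of probes. Surrogate spots (orange) lie on a falling line that ends at 2.23 on array 1 and 1.59 on array 2, while measured spots (blue) spread on both sides of 0; the dashed line is 2-fold and the dotted line is the input signal above which a spot is called bright.

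Each chromosome was then looked at alone, since both arrays differed in brightness and carried different chromosomes. Of the 18 combinations of array and chromosome, the receptor probes had dimmer input than the other probes of the same chromosome in 18, by 1.53 to 4.76 times. Their median log2 ratio over all spots was higher in 17, and over measured spots also in 17, with a median difference of 0.73 and 0.28. The exception over all spots was chromosome 8 with 4 genes (-0.17 against -0.14 at the other probes), and over measured spots chromosome 4 with 25 genes (-0.10 against -0.02).

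On array 1 the receptor median over all spots tended to be higher on chromosomes where the receptor input was dimmer. Chromosome 2, with 143 receptor genes, had the dimmest input of array 1 (median Cy3 102.5, against 488.1 at its other probes), a surrogate share of 79.4% and the highest receptor median of that array, 1.19. Chromosome 9 of array 1, with 30 genes, was close behind at 1.13, with a median Cy3 of 104.9. Chromosome 7, with 180 genes the largest set, had a Cy3 of 160.2 and a median of 0.67. Chromosome 8 (4 genes) stood at the other end, with a Cy3 of 397.3, a surrogate share of 36.0% and a median of -0.17, next to chromosome 4 (25 genes) with 341.9, 43.8% and 0.01.

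On array 2 the receptor medians over all spots ran from 0.10 on chromosome 15 (7 genes, median Cy3 239.7) to 1.34 on chromosome 10 (60 genes, 81.4). Chromosome 9, with 98 genes on this array in a cluster other than that of array 1, had 1.18 at a Cy3 of 93.2. Chromosome 11 (79 genes) had 0.49 at 158.8. The receptor probes of chromosome X (6 genes) had 1.33, and there the other probes were also high, at 0.74, with a Cy3 of 148.8. How much of each chromosome's median was owed to its input signal was not tested.

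**Figure D2:**
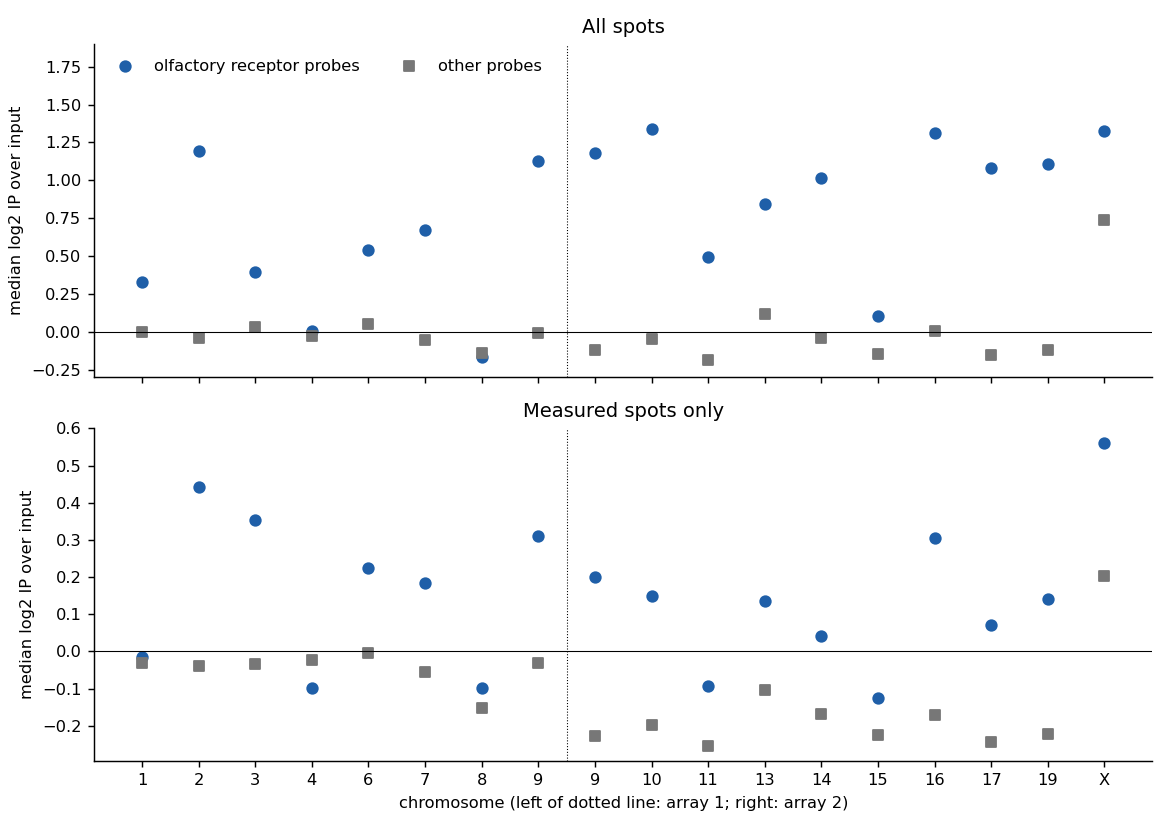
Median log2 ratio of immunoprecipitate over input for olfactory receptor probes (blue circles) and the other probes (grey squares) of each chromosome, with all spots (top) and with spots measured in both channels (bottom). Receptor medians reach 1.34 in the top panel and 0.56 in the bottom panel, and they lie above those of the other probes in 17 of 18 cases in each panel.

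Grouped by gaps of at least 1 Mb, the receptor probes formed 48 clusters, of which 10 held a single gene and 21 held 10 or more genes. Those 21 held 795 of the 883 genes. The largest were on chromosome 2 (101 genes, Olfr996 to Olfr1274, 4.83 Mb), chromosome 9 (98 genes, Olfr151 to Olfr986, 2.46 Mb) and chromosome 7 (80 genes, Olfr543 to Olfr691, 2.88 Mb). The last is the class I cluster: 78 of its 80 genes carry a class I family number in the RefSeq gene table, and 80 of all 883 genes do.

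Genes of other families inside the same clusters gave a local comparison. In 13 large clusters with at least 20 such probes, the receptor probes had dimmer input than those other probes in 13, by 1.25 to 4.41 times with a median of 2.02 times, and more surrogates in 13. The receptor probes were a median of 1.93 percentage points poorer in GC content. On chromosome 1, in the cluster from Olfr16 to Olfr414, median GC content was 36.7% at both kinds of probe, while the median Cy3 was 164.3 at receptor probes and 276.4 at the 216 others. The probes of that cluster were not matched one by one on GC content. Over the whole of array 1, at 35 to 40% GC the median Cy3 was 168.0 at receptor probes and 332.1 at the others.

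The share of genes called as bound depended on whether surrogates entered. A probe was called by a neighbourhood rule modelled on the one named in the labels, which asks for a high set mean and high single probes, and a gene was called if any of its probes was. The counts depend on how such a rule is written. With the spread of set means taken from the set means themselves, 262 and 19 receptor genes were called with all spots on array 1 and array 2. With measured spots it was 44 and 12. Calls of all genes were not counted with that spread, so these values show only how receptor counts depend on the rule. With all spots, 292 of the 427 receptor genes of array 1 that had a set were called (68.4%), where 25.1% of all genes on that array were called. On array 2 it was 29 of 439 (6.61%), where 5.51% of all genes were called. The receptor share stood far above that of all genes on array 1 and near it on array 2.

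Surrogates made up most of these calls on array 1. Of the 1607 receptor probes called there (15.9%, where 2.45% of all probes were called), 1396 had a surrogate Cy5. In 180 of the 292 called genes the highest set was made of surrogates alone, and in 8 it held none. On array 2, where 29 receptor probes were called (0.296%, where 0.271% of all probes were), 1 was a surrogate. The line a probe had to pass for the rule on 2 probes was a log2 ratio of 1.85 on array 1 and 2.00 on array 2, so the highest surrogate receptor spot lay above it on array 1 (2.23) and below it on array 2 (1.59). The arrays hold different genes, so array and gene cannot be told apart in these counts.

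On array 1 the clusters with the dimmest input had the most genes called with all spots. In the cluster of 19 genes from Olfr1275 to Olfr1318 on chromosome 2, with a median Cy3 of 81.0, all-spot calls covered 19 genes and measured-spot calls 3. In the cluster from Olfr310 to Olfr292 on chromosome 7 (15 genes, median Cy3 77.3), 14 and 0 were called. In the cluster from Olfr62 to Olfr1328 on chromosome 4 (14 genes, median Cy3 376.7), 0 and 0 were. The cluster from Olfr522 to Olfr541 on chromosome 7 (17 genes, 370.4) had 1 and 2. The dim clusters were called nearly in full and the bright ones hardly at all, as long as surrogates were kept.

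**Figure D3:**
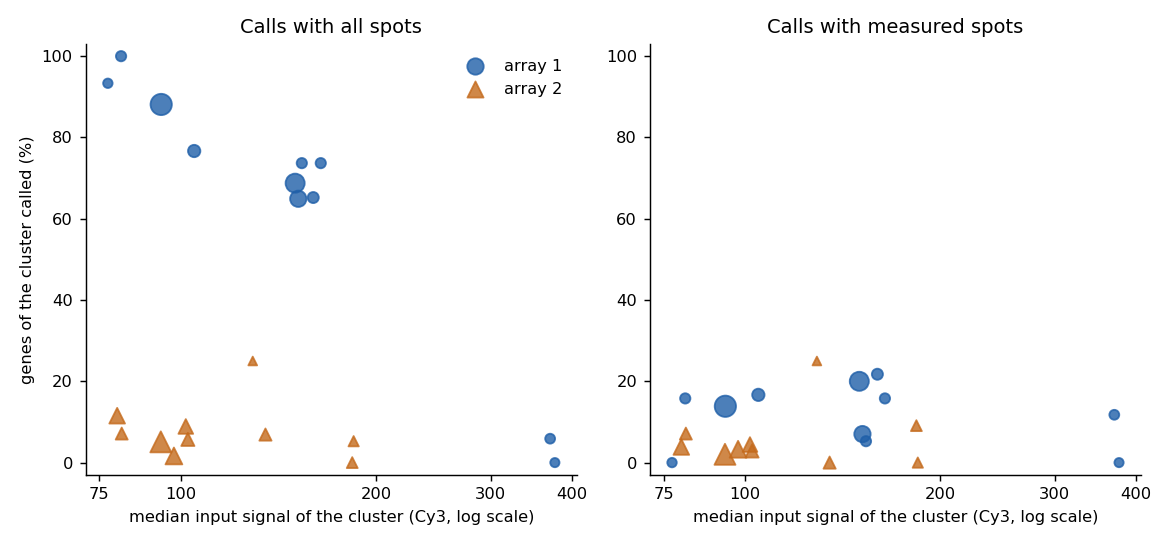
Share of receptor genes called in each of the 21 clusters with 10 or more genes (y axis, %) against the cluster's median input signal (x axis, Cy3 processed intensity, log scale), with all spots (left) and measured spots (right); blue circles are array 1, orange triangles array 2, and point area grows with the number of genes. With all spots the clusters of array 1 run from 100% at a Cy3 of 81.0 to 0% at 376.7, and those of array 2 stay between 0 and 25%.

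With sets built from measured spots only, 57 of 362 receptor genes of array 1 were called (15.7%, where 18.4% of all genes were) and 17 of 256 on array 2 (6.64%, where 12.4% were). In all, 72 receptor genes had no measured probe, and 618 of 883 had a measured set. The receptor share of genes was below that of all genes on both arrays. A gene was called if any of its probes was, and fewer receptor probes were measured (29.8% and 16.2%, against 71.1% and 49.6% of the others). By probe, 76 of 3012 measured receptor probes of array 1 were called (2.52%, where 1.59% of all were). On array 2 it was 22 of 1593 (1.38%, where 1.39% were). With the median ratio of each 2% bin of GC content subtracted from the measured spots, the counts became 117 of 362 (32.3%, where 21.2% of all genes were called) and 18 of 256 (7.03%, where 8.05% were). On array 1 this setting turned the order of receptor genes and all genes around, and on array 2 it did not. Of the 74 genes called with measured spots, 60 were also called with all spots and 59 in all 3 settings.

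A brightness limit on the input took the surrogate out of the comparison without choosing on the immunoprecipitate. A spot was called bright if its Cy3 was at least 112.3 on array 1 or 110.7 on array 2, above which a surrogate Cy5 reads below 2-fold, so surrogates could stay in. Of the bright receptor spots, 615 of 6130 on array 1 reached 2-fold, 10.0% (9.29 to 10.8%), where 10.3% of all bright probes did. On array 2 it was 236 of 4569, 5.17% (4.54 to 5.85%), where 5.71% of all did. Over all spots the shares had been 42.1% and 51.8%, where 16.1% and 17.7% of all probes reached 2-fold, and over measured spots 23.8% and 17.8%, where 14.1% and 10.5% did. The excess of receptor probes over all probes was thus not seen once a bright input was asked for. Genes called from bright spots were 46 of 408 on array 1 (11.3%, where 22% of all genes were) and 14 of 393 on array 2 (3.56%, where 11.9% were). A smaller share of receptor probes was bright, 60.6% and 46.6% against 94.0% and 87.2% of the others. Receptor genes thus had fewer bright probes from which to be called.

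The picture changed again when probes of equal input were compared. Bright receptor probes were still dimmer and poorer in GC than the other bright probes, and the share at 2-fold rose with input signal on both arrays. Between a Cy3 of 200 and 400 on array 1, 9.07% (7.92 to 10.3%) of 2282 receptor probes and 6.11% (5.91 to 6.30%) of the others reached 2-fold. Between 400 and 800 it was 13.3% (11.4 to 15.5%) of 1080 receptor probes against 9.35% (9.14 to 9.57%). On array 1 the receptor share was the higher in each of 4 ranges of input. On array 2 it was higher in 2 ranges, such as 5.88% (4.75 to 7.19%) against 3.96% (3.82 to 4.11%) between 200 and 400, and lower in the ranges from 400 to 800 and from 800 to 1600, where the intervals of the receptor shares included the shares of the others.

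**Figure D4:**
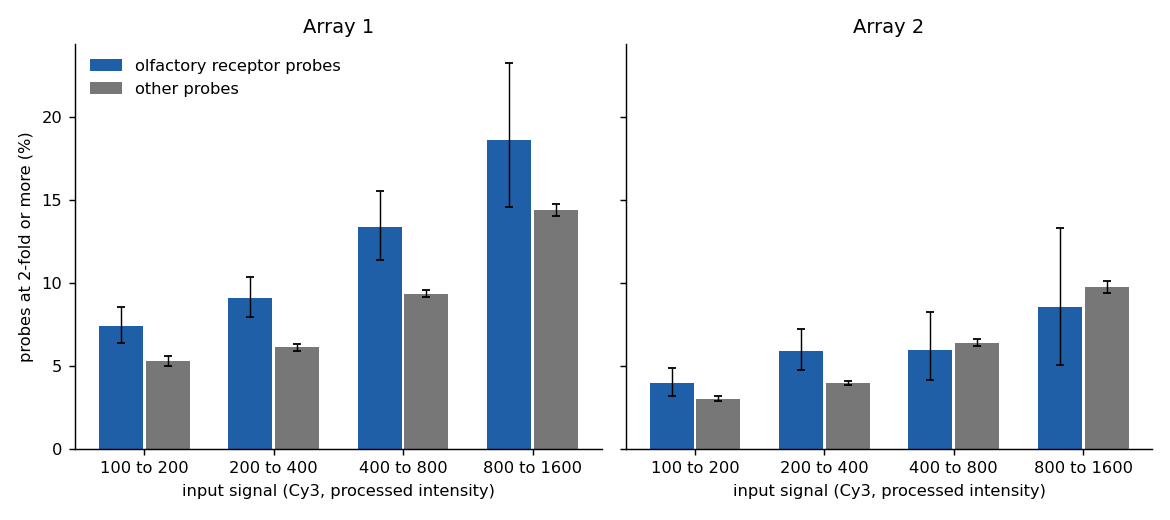
Share of bright probes at 2-fold or more (y axis, %) in 4 ranges of input signal (x axis, Cy3 processed intensity) for olfactory receptor probes (blue) and the other probes (grey) of array 1 (left) and array 2 (right), with exact binomial 95% intervals that treat probes as independent. On array 1 receptor probes rise from 7.39% to 18.6% and other probes from 5.29% to 14.4%; on array 2 the order is the other way round in the ranges from 400 upwards.

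Weighting the other probes to the GC content and input signal of the bright receptor probes of the same array widened the gap. The other probes then had 5.34% at 2-fold on array 1 and 2.90% on array 2, against 9.89% (9.15 to 10.7%) of 6085 receptor probes and 5.04% (4.42 to 5.72%) of 4520, a ratio of 1.85 and 1.74. With GC content alone the ratios were 1.60 and 1.48, with input signal alone 1.42 and 1.25, and with no weighting 0.97 and 0.90. By chromosome, the receptor probes of each were set against weighted other probes of the whole array, not of the same chromosome. That ratio ran from 1.01 on chromosome 4 to 2.89 on chromosome 13, and it was above 1 in 18 of 18. The interval of the receptor share lay above the share of the others in 13 and included it on chromosomes 3, 4, 8, 15 and X. Chromosome 2 had 2.48, chromosome 7 had 1.77 and the array 2 part of chromosome 9 had 1.89. This weighting was chosen after the data were seen. Unweighted, against the other bright probes of the same chromosome, the receptor share was higher in 8 of 18 and lower in 10. On chromosome X it was 4.48%, against 9.42% at the other bright probes of that chromosome. Whether the receptor probes stood above or below the rest of the array hence depended on whether probes alike in base composition and input were compared.

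Of the 5 genes of array 1 with the highest measured sets, 3 lay in the class I cluster. Olfr642 had the highest, 2.69 ± 0.15 (SD, 2 probes), with spots at 2.79 and 2.58 over input signals of 137.1 and 215.9. Olfr645 in the same cluster had spots at 2.00 and 3.35, a mean of 2.67 ± 0.96. Both are class I receptors and were called with all, measured and bright spots.

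Olfr591, the third class I gene among the leaders, had a set of 3 measured probes at 3.59, 1.17 and 2.94 (2.56 ± 1.25), of which the last had a dim input of 77.6. Olfr351 and Olfr352 on chromosome 2, class II receptors that share the 2 probes of their set, had 1.61 and 3.54 (2.58 ± 1.36; chr2:36876212-36876377). That value describes the DNA between both genes and not either one. The set did not itself pass the rule, while its higher probe was called, with the set centred on it. In each of these sets but that of Olfr642, single probes differed by more than 1 log2 unit.

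On array 2 the leader was the pair name AW551984-Olfr148 on chromosome 9, at 2.06 and 3.07 (2.57 ± 0.72). Its partner is not an olfactory receptor, so the set cannot be given to Olfr148 alone. Olfr1434 on chromosome 19 followed with spots at 2.13 and 2.71 (2.42 ± 0.41), and Olfr734 on chromosome 14 with 2.54 and 1.79 (2.16 ± 0.53). Olfr187 on chromosome 16 had 3.10 and 0.99 (2.05 ± 1.49), of which the first had a dim input of 102.8, and its neighbour Olfr186 had 2.16 and 1.67 (1.92 ± 0.35). Olfr187 was not called from bright spots, while the other leaders of array 2 were.

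**Figure D5:**
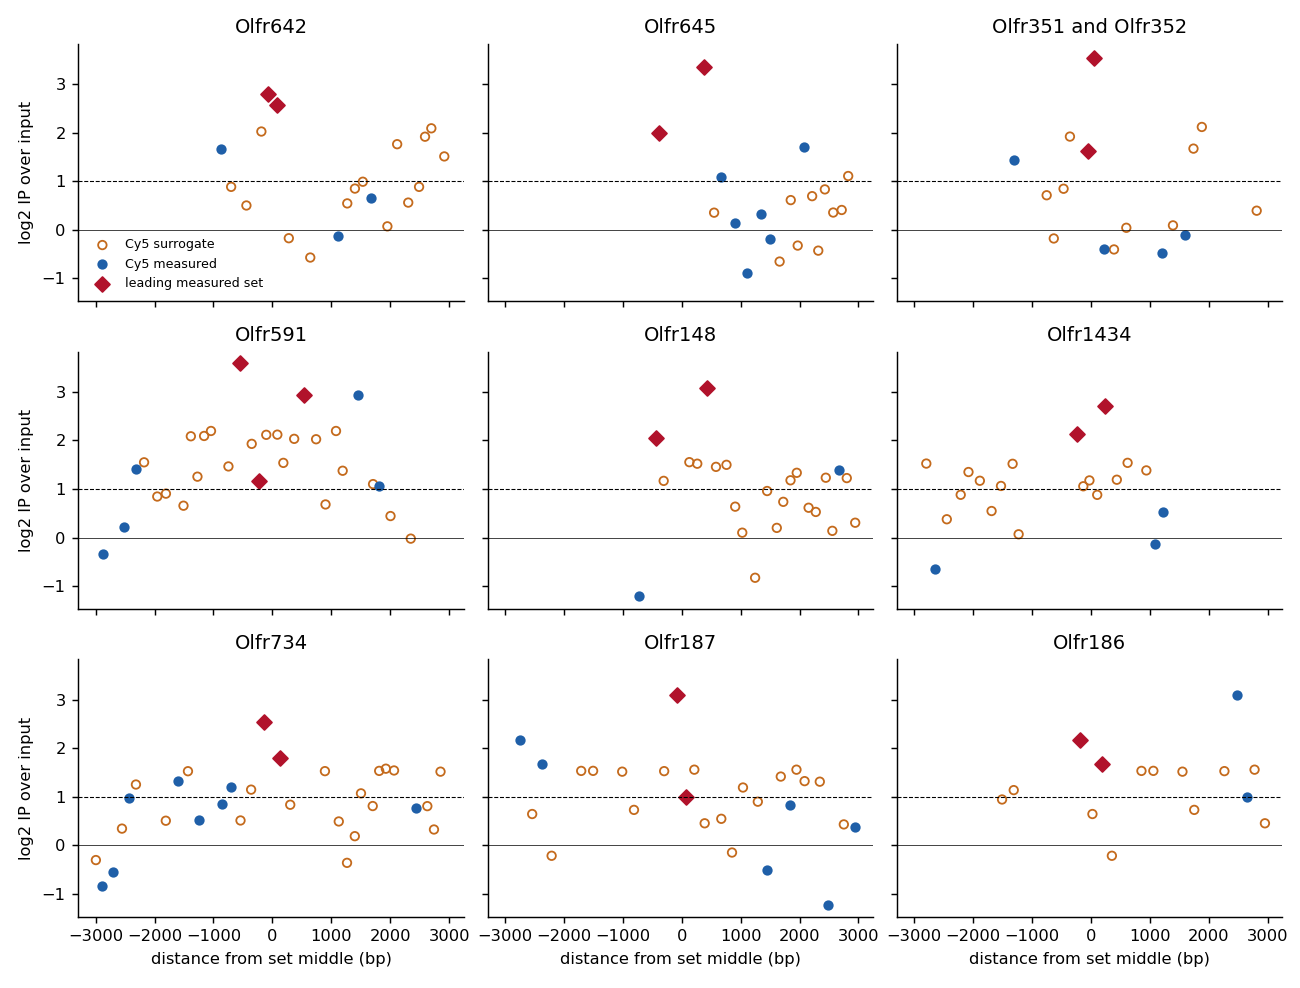
Log2 ratio of immunoprecipitate over input (y axis) of each probe within 3000 bp of the middle of the leading measured sets (x axis, distance in bp), array 1 genes first; red diamonds are the set, blue dots other measured spots, open orange circles surrogate spots, and the dashed line is 2-fold. Around Olfr642 the measured probes outside the set lie at or below 1.66, and in each of the panels most probes are surrogates.

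Among the leaders of single chromosomes, Olfr414 on chromosome 1 stood out by its bright input, with spots at 2.06 and 2.03 (2.05 ± 0.02; chr1:174397478-174397851) over Cy3 signals of 1891 and 1094. Olfr211 on chromosome 6 had 3 measured neighbours at 2.05, 2.80 and 1.28 (2.04 ± 0.76), with 22 of its 42 probes measured. Olfr1365 on chromosome 13 had 1.76 and 1.84 (1.80 ± 0.06). In these 3 genes the probes of the set were bright, and each gene was called from measured spots, from bright spots and after subtraction of the GC trend.

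The next 4 chromosome leaders had probes that differed more. Olfr870 on chromosome 9 of array 1 had 0.22 and 3.92 (2.07 ± 2.61) on neighbouring probes. Olfr792 on chromosome 10 had 0.95 and 2.54 (1.75 ± 1.12), Olfr316 on chromosome 11 had 1.66, 0.80 and 1.77 (1.41 ± 0.53), and Olfr106 on chromosome 17 had 1.59, 2.19 and 0.37 (1.39 ± 0.93). The sets given for Olfr870 and Olfr792 did not themselves pass the rule. In both the higher probe was called, with the set centred on it. Olfr792 and Olfr316 lost their call when the GC trend was subtracted. Chromosome 4 had 25 genes and no gene called with measured spots.

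The highest sets over all spots each held a surrogate. On array 1 they were those of Olfr47 (2.91; a spot at 3.62 whose Cy3 was a surrogate, and one at 2.19 with both channels surrogates), Olfr1406 (2.77; 3.46 and 2.07) and Olfr1299 (2.71; 3.31 and 2.11). On array 2 they were Olfr955 (2.15; 3.20 and 1.11), Olfr809 (2.15; 3.40 between surrogates at 1.49 and 1.57) and Olfr893 (2.13; 2.69 and 1.56). The set of Olfr47 held no measured spot, and each of the others held 1 measured spot next to surrogates. Olfr47, Olfr1406, Olfr955, Olfr809 and Olfr893 were not called with measured spots, and the last 3 had no measured set. The measured set of Olfr1406 held the same high probe beside one at -0.72, 1.37 ± 2.96 (SD, 2 probes).

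The 74 genes called with measured spots had set means from 1.08 to 2.69, with a median of 1.99. Their sets held 2 probes in 54 genes and 3 in 20, and in 48 genes the dimmest probe of the set had a Cy3 under 200. Of the 74, 15 were class I and 57 class II, and 46 were also called from bright spots. In 11 of them the leading set held a probe with a pair name.

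Class I and class II genes of chromosome 7 did not differ beyond counting error in the share of bright probes at 2-fold. It was 10.3% (8.66 to 12.2%) of 1222 class I probes and 9.58% (8.11 to 11.2%) of 1441 class II probes. Among genes of that chromosome with a set, 15 of 68 class I and 6 of 85 class II genes were called with measured spots, where 18.4% of all genes on the array were. By probe it was 21 of 589 (3.57%) and 8 of 743 (1.08%), where 1.59% of all measured probes were called. In measured calls the class I share was thus the higher, by gene and by probe, which was not tested. With all spots, 54 of 77 class I and 54 of 96 class II genes were called, where 25.1% of all genes were. Their probes were alike in GC content (median 36.7% each) and in input (150.0 and 171.9).

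The sequence bound by Tcf/Lef factors was no more frequent in receptor probes than elsewhere on the arrays. Its core, CTTTGA read on either strand, occurred in 887 of 15904 receptor probes of 60 bases (5.58%) and in 5.83% of the 181149 other probes of that length. CTTTGAT, the longer form that contains the core, occurred in 1.51% and 1.45%. Of the 98 receptor probes called with measured spots, 2 held the core (2.04%), against 2.78% of the 4104 other probes called. Measured receptor probes of 60 bases with the core had a median log2 ratio of 0.75 on array 1 (56 probes) and 0.65 on array 2 (27 probes), against 0.46 and 0.55 without it. At the other measured probes of that length it was -0.41 with the core and -0.33 without on array 1, and -0.15 in both cases on array 2. For CTTTGAT the receptor medians were 0.96 (18 probes) against 0.47 on array 1 and -0.10 (6 probes) against 0.57 on array 2. Of the 42 probes in the measured sets of the named genes 1 held the core, in Olfr316. In RefSeq promoters (250 bases before to 50 after each start), 183 of 742 receptor promoters held the core (24.7%), against 16.0% of all 32851 promoters, and 7.95% against 3.73% held CTTTGAT. The RefSeq assembly and the build of the arrays were not matched, so these promoters were not set against the ratios. Receptor promoters and all promoters were not matched on base composition either, and its part in the difference was not tested.

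Other short words were more frequent in the high spots. Ranked over the words of 6 letters, both strands, found in at least 15 of the high spots, CACCAC and CAACAC were the most over-represented in the 300 measured receptor spots at 4-fold or more compared with the 3603 under 2-fold. CACCAC occurred in 10.0% against 2.69%, and CAACAC in 13.0% against 3.72%. They were chosen on these spots, which is a description and no test. In the probes outside the receptor family, which had no part in the choice, bright probes with CACCAC reached 2-fold in 28.7% of 4162 on array 1 and 17.5% of 3732 on array 2, against 9.93% and 5.50% without it. For CAACAC it was 22.7% and 13.9% with the word and 9.98% and 5.52% without. The words thus went with high ratios on both arrays and outside the receptor genes too, and they are not the Tcf core. Bright probes outside the family that held CACCAC also had brighter input (median Cy3 774.1 against 510.6 on array 1) and more GC (43.4% against 41.1%), and the part of these in the result was not tested.

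Receptor probes had few CpG dinucleotides: 79.5% on array 1 and 78.3% on array 2 held none, against 56.7% and 55.9% of the other probes. A stretch of 25 bases shared with a probe of another receptor gene was found in 6 probes of array 1 and 10 of array 2, and 0 of these were called with measured spots. Exact stretches of that length were thus rare between probes of different receptor genes. Shorter or inexact matches were not counted. Probes were not compared with the receptor genes or the genome, so matches to a related copy without a probe at that place were not seen.

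Probes of other chemoreceptors also often lacked a signal in the immunoprecipitate. Of 1200 vomeronasal receptor probes on array 1, 71.4% (68.8 to 74.0%) had a surrogate Cy5, with a median log2 ratio of 0.85 over all spots. Of 798 bitter taste receptor probes (Tas2r) it was 73.3% (70.1 to 76.3%), with 0.75, and of 339 trace amine receptor probes (Taar) on array 2 it was 75.2% (70.3 to 79.7%), with 0.51, below the 83.5% and 1.06 of olfactory receptor probes on that array. At 70.1% the surrogate share of olfactory receptor probes on array 1 was close to that of the first 2 groups. On array 2, 84.3% (81.7 to 86.6%) of 872 vomeronasal receptor probes had a surrogate Cy5, close to the olfactory receptor share there, with a median log2 ratio of 0.91.

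Genes that act with the receptors in olfactory neurons were read from 2 lists. Of 18 genes of olfactory signal transduction and receptor transport, 17 were on the arrays, of which 5 were called from measured spots (18.4% and 12.4% of all genes were) and 3 after subtraction of the GC trend (21.2% and 8.05% of all genes). Reep1 was called in both settings, and the other calls after subtraction, Ano2 and Pde1c, were not among the first 5. The highest set means were those of Reep1, which helps receptors reach the cell surface (2.58 ± 1.1, SD, 3 probes), the chloride transporter gene Slc12a2 (2.15 ± 0.93) and the phosphodiesterase gene Pde4a (2.09 ± 1.41). Only Reep1 of these 3 kept its call after subtraction of the GC trend. Of 12 regulators of receptor choice, 10 were on the arrays and 2 were called in both settings, a count of the size that the shares of all genes would give. These were Ebf3, an Olf/Ebf transcription factor (2.39 ± 0.97, SD, 3 probes), and Lbr, the lamin B receptor of the nuclear envelope (2.09 ± 0.23, SD, 3 probes), followed by Kdm1a, a histone demethylase (1.70 ± 0.29), which was not called.

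The median of the highest measured set mean was 1.15 over the transduction genes and 1.20 over the regulators, beside 0.72 over the 618 receptor genes with a measured set and 0.87 over all 16374 genes with one. Genes of these lists had a median surrogate share of 33.3% and 17.6%, against 80.0% over the receptor genes, and more GC in their probes. The highest set mean of a gene tends to rise with its number of measured sets, and receptor genes had fewer measured probes. The medians hence do not compare like with like, and the part of this in their difference was not tested.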

How the data were processed

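Both promoter arrays were read by the authors in Agilent Feature Extraction (9.1.1.1 in the file headers). Each channel's processed signal is an intensity from which the authors' software had subtracted background and which it had dye-normalized, with a surrogate where nothing rose above background, per the file headers. As an alternative, the log10 ratio that the authors deposited was used. The value table deposited beside it equals the error of that ratio at every spot and was not used otherwise. Log2 ratios of the processed signals were centred on each array's median after 27 non-uniform spots (1 of them a receptor probe) were left out, and 4 probes with a pseudogene name were not members.

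The calling rule asked for a set probability under 0.001 and either a probe under 0.001 with a neighbour under 0.1 or 2 probes under 0.005, with the scale taken from the values below the median (0.72 and 0.78 in log2). These probabilities served only as a rule. The caller was tested on simulated data with independent normal noise and no surrogates, so that test says nothing about calls on surrogates. Weighted shares used cells of 2% GC content and input signal with at least 50 other probes. RefSeq gene names (GRCm38.p6, no coordinates used) matched 849 receptor names as current and 27 as older symbols, and 7 did not match. Class I was read from family numbers up to 42. Named genes are, per array, the 5 with the highest measured set means and the 3 with the highest over all spots, the leading called gene of each chromosome with 10 or more receptor genes, and the 3 highest of each list. Members and lists were chosen with earlier results of these data known. Python 3.11.15, pandas 2.3.3, scipy 1.17.1, statsmodels 0.14.6, R 4.3.3 and limma 3.58.1 (normexp, offset 50) were used.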

Additional observations from a re-analysis of the deposited data

How the results depend on the processing

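No paired analysis was possible because each probe was measured on 1 array and the arrays share none. Of 94 alternative values, 65 stayed within the spread over chromosomes, the counting interval or 1.5 times the count, and 29 moved. No median or difference of medians changed sign, while counts and shares have no sign to change. The order of receptor genes and all genes was not among these values. For genes called with measured spots it turned on array 1 with the GC trend subtracted. Beyond the main setting, calls of all genes were counted only with bright input and, for measured spots, with the GC trend subtracted. The other counts of called genes below therefore do not show whether receptor genes moved more than the rest of the array. Values are given for array 1 and array 2. The median over all spots became 0.24 and 0.030 with the deposited log ratio, where over 50% of receptor spots stand at 0, 0.046 and 0.019 with normexp, 0.013 and 0.0085 with the intensity trend subtracted, 0.19 and 0.22 with bright input, and 0.33 on array 2 with the GC trend subtracted. The measured median became 0.40 and 0.42 with the intensity trend subtracted and 0.56 on array 2 with normexp. Genes called with all spots became 27 and 3 (deposited log ratio), 101 and 58 (normexp), 182 and 168 (intensity trend), 46 and 14 (bright input), 159 and 8 (scale from the central values), and 12 on array 2 (GC trend) and 19 on array 2 (spread of set means). Genes called with measured spots became 31 and 8 (central scale), 117 and 96 on array 1 (GC trend, intensity trend) and 11 on array 2 (a 10 times stricter set probability). With bright input a surrogate Cy5 reads below 2-fold, and in the deposited ratio 5404 and 7153 surrogate receptor spots stand at 0. The cause of these moves was not tested. Bright input and the spread of set means were added after seeing the data. Signal over background limits what can be read, since 71 of 883 receptor genes had surrogate Cy5 at every probe.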
